A study of Mus musculus with 5 samples.

Results

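Methylation canyons were taken here as runs of at least 5 consecutive autosomal windows of 1 kb. Each window held at least 10 CpG dyads and at least 20 calls, and had a methylation level of at most 15% in the 2 Tet2+/+ libraries together. A dyad is a CpG with its partner on the other strand, a call is 1 read base scored as methylated or unmethylated, and the level is the percentage of methylated calls among all calls of a region. Of 741737 autosomal windows with at least 10 dyads, 37159 passed these limits and formed 24705 runs. The 223 runs of 5 to 10 windows were the canyons, which covered 1266 kb, 58093 dyads and 3.41% of the low windows. Because measured Tet2+/+ levels chose the canyons, the levels inside them are given as a description with no test, and "gain" and "loss" inside canyons mean only a higher or lower mean in Tet2-/-.

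Whole genome bisulfite sequencing had been done on acute myeloid leukemia (AML) blasts from the bone marrow of 5 mice, labelled C57BL/6 and all with the Cebpa-/p30 genotype, in which 1 Cebpa allele is deleted and the other makes only the short p30 protein. The 2 Tet2+/+ libraries (numbers 23 and 24) had intact Tet2, and in the 3 Tet2-/- libraries (numbers 5, 7 and 8) Tet2 was deleted as well. The deletions were made by the interferon-inducible Mx1-Cre in C57BL/6J donor marrow after transplantation into irradiated C57BL/6J.SJL recipients, so that recombination was not restricted to 1 blood cell type. Live donor-derived cells negative for CD3, B220 and Ter119 were sorted, and each library was thus the leukemia of 1 mouse rather than a purified progenitor stage. The paper reports that AML arose sooner in Tet2-/- recipients. It also reports different shares of cells with the myeloid surface markers Mac1 and Gr1 in the marrow of moribund mice. Time of disease and cell composition thus went along with genotype, and their part in the levels was not tested.

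Canyons are stretches without methylation that are much longer than a common CpG island. In blood stem cells many lie over genes of developmental transcription factors held silent by Polycomb complexes, and others over genes in use. The methyltransferase DNMT3A and the TET dioxygenases, which oxidise 5-methylcytosine, are known to act at their edges. Bisulfite reads score 5-methylcytosine and 5-hydroxymethylcytosine alike, so that each level is the sum of both.

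The libraries held 61122068 to 107360283 autosomal calls, or 2.999 to 5.27 calls per dyad, and library 8 was the shallowest. In the mitochondrial genome 0.807% to 0.989% of calls were scored as methylated, and levels near 1% inside canyons are of that size. Over all autosomal windows the level was 67.3% and 62.3% in Tet2+/+ and 70.9%, 74.8% and 68.4% in Tet2-/-, a difference of 6.59 points (two-sided exact permutation test, p = 0.2). Promoters of Spi1, Mpo, Kit, Csf3r and Cd34, genes of myeloid cells and their progenitors, had levels of 2.49% to 23.95%, whereas those of the lymphocyte genes Cd79a and Cd3e, the liver gene Alb and the keratin gene Krt5 had 55.4% to 89.1%. Promoters of Ptprc, the gene of CD45, and of the erythroid factor Klf1 were at 18.7% to 33.7%.

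4 windows of 300 bases outside exons show the dyads of the canyons that come first by length, by inside gain and by flank gain, where flank means 1 to 3 kb outside either end (GRCm38, plus strand, CG dyads in capitals).
Tnrc18 canyon, near its middle, chr5:142818251-142818550: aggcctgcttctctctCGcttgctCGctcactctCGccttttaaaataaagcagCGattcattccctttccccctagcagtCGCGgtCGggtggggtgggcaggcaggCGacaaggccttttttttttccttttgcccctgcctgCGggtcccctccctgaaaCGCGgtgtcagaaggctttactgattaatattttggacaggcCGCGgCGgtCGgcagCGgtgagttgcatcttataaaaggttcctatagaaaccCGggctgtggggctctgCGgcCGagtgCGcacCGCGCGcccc
Tnrc18 canyon, flank, chr5:142811301-142811600: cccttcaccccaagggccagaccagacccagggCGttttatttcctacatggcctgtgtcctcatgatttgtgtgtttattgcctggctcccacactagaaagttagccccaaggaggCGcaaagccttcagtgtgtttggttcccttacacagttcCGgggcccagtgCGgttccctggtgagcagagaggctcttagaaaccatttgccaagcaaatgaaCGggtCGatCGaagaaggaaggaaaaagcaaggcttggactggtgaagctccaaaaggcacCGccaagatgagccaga
Foxl2 canyon, inside, chr9:98954601-98954900: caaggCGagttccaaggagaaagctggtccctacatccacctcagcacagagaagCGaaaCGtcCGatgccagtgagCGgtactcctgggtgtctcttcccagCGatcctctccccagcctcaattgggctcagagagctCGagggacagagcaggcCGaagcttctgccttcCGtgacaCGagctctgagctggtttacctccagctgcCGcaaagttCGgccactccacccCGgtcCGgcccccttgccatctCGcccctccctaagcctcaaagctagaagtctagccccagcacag
Canyon nearest to Ppara, flank, chr15:85667451-85667750: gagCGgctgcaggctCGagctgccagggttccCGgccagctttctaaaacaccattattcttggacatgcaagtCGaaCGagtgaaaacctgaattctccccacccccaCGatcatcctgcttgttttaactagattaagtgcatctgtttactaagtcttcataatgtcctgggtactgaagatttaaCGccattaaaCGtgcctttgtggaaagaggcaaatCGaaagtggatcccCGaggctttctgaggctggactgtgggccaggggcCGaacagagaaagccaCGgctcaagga
The stretch near the middle of the Tnrc18 canyon held 23 dyads at 0% and 1.22% in Tet2+/+ and 1.31%, 1.19% and 0.971% in Tet2-/-, on 82 to 168 calls. The 0% rests on 116 calls and allows a level of up to 2.59%, for counting error only. The stretch in its flank, in an intron of Tnrc18, held 8 dyads at 60% and 52.9% against 90.6%, 93.8% and 89.7%. The groups overlapped in the middle stretch and were apart in the flank stretch of the same canyon. The Foxl2 stretch held 15 dyads at 1.64% and 2.82% against 35.9%, 26.7% and 48.8%, and the stretch in the flank near Ppara 12 dyads at 14.04% and 4.08% against 82.4%, 53.3% and 89.4%. The last 2 windows were chosen for their differences and illustrate them.

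Most canyons were short, with 139 of 5 kb, 50 of 6 kb, 16 of 7 kb, 8 of 8 kb, 5 of 9 kb and 5 of 10 kb, while 464 runs of 4 windows lay just under the limit on length. Just inside the limit on level, 27 canyon windows were at 14% to 15%. Of the 446 windows next to a canyon end, 160 held fewer than 10 dyads, and of the other 286, 45 were at 15% to 20% and 118 above 50%. The median Tet2+/+ level was 2.57% in canyon windows and 42.4% in the windows next to them. Canyons held 45.9 dyads per kb with a GC content of 55.2% and a ratio of observed to expected CpG of 0.602. Their flanks held 13.8 dyads per kb, 46.9% GC and a ratio of 0.251, and the other windows with at least 10 dyads had a ratio of 0.3004. Starts of protein-coding genes lay in 15.6% of canyon windows and in 0.897% of flank windows, against 26.8% of the windows in runs of 1 to 4. Of the 223 canyons 179 held such a start and 44 did not, where only 1 start was counted per gene, the upstream end of its annotated span. Chromosome 11 held 26 canyons, or 0.562 per 1000 windows of at least 10 dyads, and chromosome 1 held 7, or 0.140 per 1000.

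The inside of the canyons was more methylated in Tet2-/-. Its level was 3.88% and 3.38% in Tet2+/+ and 5.96%, 7.07% and 8.22% in Tet2-/-, with means of 3.63% ± 0.348 (SD, n = 2) and 7.09% ± 1.13 (SD, n = 3) and a difference of 3.46 points on 192975 to 377895 calls per library. All Tet2-/- libraries lay above both Tet2+/+ libraries, and library 8 was the highest inside canyons although library 7 was the highest over the genome. Low runs of 1 to 4 windows, chosen by the same limit, had means of 4.59% and 8.596%, a difference of 4.005 points. By length it was 6.47 points in runs of 1, 2.77 in runs of 2, 2.49 in runs of 3 and 2.85 in runs of 4. A higher inside level in Tet2-/- was thus not particular to canyons. Partial methylation of a canyon in many cells and full methylation in a few cannot be told apart in these levels. The size of the difference followed the choice of windows. In canyons defined on both groups together it was 1.06 points (2.58% and 2.53% against 3.04%, 3.61% and 4.19%), and in 108 canyons defined on the Tet2-/- libraries it was 0.388 points (2.12% and 2.20% against 2.12%, 2.51% and 3.02%), where library 5 was as low as library 23. When 1 Tet2+/+ library chose the canyons and the other was measured, the difference was 2.80 points (216 canyons, measured in library 24) and 3.43 points (261 canyons, measured in library 23).

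The difference was larger near the ends. The outer 1 kb on each side was at 5.91% and 5.11% in Tet2+/+ and 9.54%, 11.1% and 11.7% in Tet2-/-, a difference of 5.27 points, and the core between the outer windows at 3.06% and 2.69% against 4.57%, 5.58% and 6.85%, a difference of 2.79 points. Relative to the Tet2+/+ mean these were 95.6% and 97.1%, so that the outer windows, which started higher, differed by about the same proportion. No background like the mitochondrial 0.807% to 0.989% was taken off here, and it is a larger part of the core level. The first 1 kb outside was at 45.1% and 40.8% against 51.6%, 57.5% and 54.3%, a difference of 11.5 points. Of the 223 canyons, 145 had a larger gain in the outer windows than in the core.

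**Figure D1:**
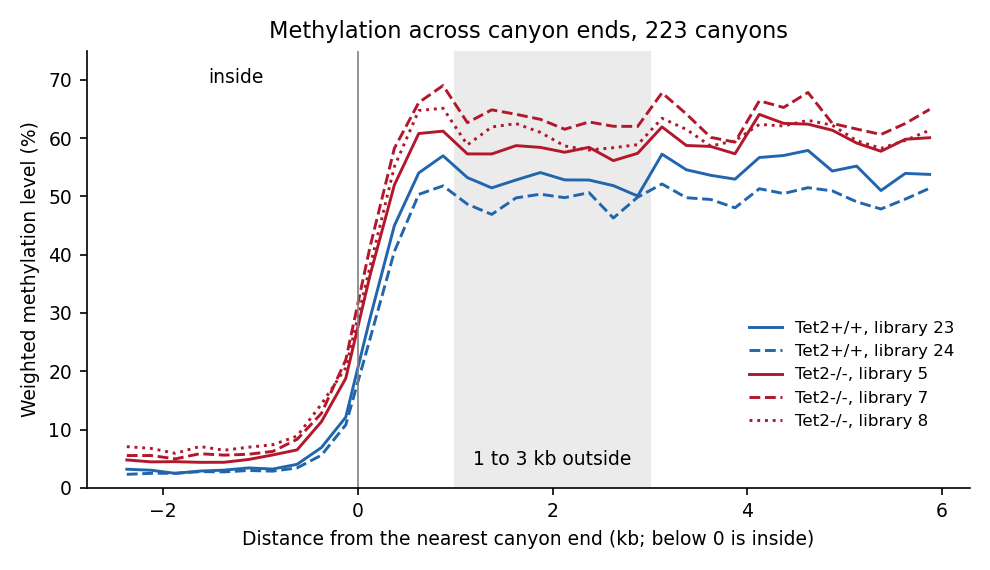
Methylation level (%) in bins of 250 bp by distance (kb) from the nearest end of the 223 canyons, 1 line per library (Tet2+/+ and Tet2-/- in different colours). The Tet2-/- lines lie above the Tet2+/+ lines in every bin, with a difference of 2.60 to 3.39 points from 2500 to 750 bp inside, 8.98 points in the last 250 bp inside and 12.3 points at 250 to 500 bp outside.

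The profile across canyon ends showed where the difference widened. From 2500 to 750 bp inside an end it was 2.60 to 3.39 points, from 500 to 250 bp inside it was 6.57 points, and in the last 250 bp inside it was 8.98 points. The widest difference, 12.3 points, lay 250 to 500 bp outside, where Tet2+/+ libraries were at 45.01% and 40.6% and Tet2-/- libraries at 52.0%, 58.3% and 55.1%. At 1250 to 1500 bp outside it was 12.2 points, and between 2000 and 2500 bp it was 7.94 to 7.99 points. The ends themselves were set on Tet2+/+ levels.

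Single dyads and windows inside canyons were counted too, as a description only, since the rule had chosen these windows as low in Tet2+/+. Of 39798 canyon dyads with at least 5 calls in each group, 461 (1.16%) were at 50% or more in Tet2+/+ and 1605 (4.03%) in Tet2-/-, and in the outer 1 kb these shares were 2.53% and 7.78%. Dyads with no methylated call made up 80.4% and 63.1%, where the Tet2-/- libraries had more calls. Of 1259 canyon windows, 55 and 32 exceeded 15% in the single Tet2+/+ libraries and 201, 305 and 335 in the single Tet2-/- libraries. By CpG density the difference was 7.03 points in windows of 10 to 19 dyads and 5.94 in those of 20 to 34. It was 4.60 in those of 35 to 49 and 2.21 in those of 50 or more. Relative to the Tet2+/+ mean these were 114%, 111%, 97.8% and 89.5%. No background like the mitochondrial 0.807% to 0.989% was taken off, and it is the largest part of the level in the densest windows. A trend of these ratios with density is thus not read.

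Canyons differed widely from each other. The inside mean was higher in Tet2-/- in 188 and lower in 35, with a median difference of 1.83 points and quartiles of 0.251 and 6.51 points. In 77 canyons the means were within 1 point, and in 26 the gain exceeded 10 points. All Tet2-/- libraries lay above both Tet2+/+ libraries in 122 canyons (54.7%) and below both in 6 (2.69%), beside 41.4% and 3.03% of low runs of any length. Nothing is read from these shares, since the rule used the same levels. The 22 canyons with the largest gains held 38.6% of the summed gain. By Tet2+/+ level, which the rule used and which enters the difference itself, the median difference was 0.504 points in the 116 canyons under 3%, 3.44 points in the 64 at 3% to 6% and 8.87 points in the 43 at 6% or more. This too is a description from which nothing is read. Library 8 had the highest inside level in 116 canyons, library 7 in 71, library 5 in 11, library 24 in 16 and library 23 in 9.

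**Figure D2:**
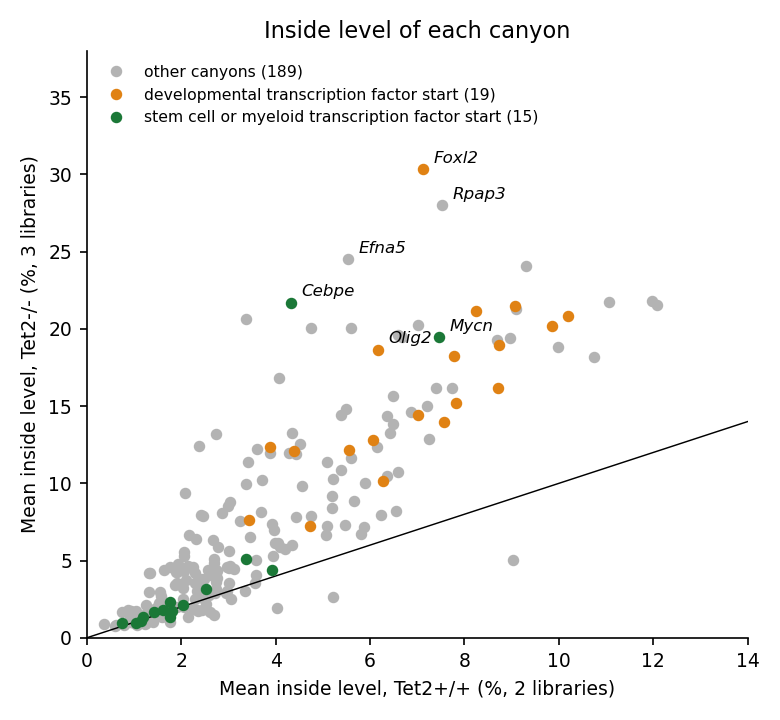
Mean inside level (%) of each of the 223 canyons in Tet2+/+ (x axis, 2 libraries) and in Tet2-/- (y axis, 3 libraries), with the line of equal levels. All 19 canyons over starts of listed developmental transcription factor genes lie above the line, whereas 13 of the 15 over stem cell and myeloid transcription factor genes lie within 1.73 points of it, and Cebpe and Mycn lie further above.

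Canyons were then judged in the pooled Tet2-/- libraries by the same limit of 15%. Of the 223, 79 (35.4%) kept all windows, 22 (9.87%) were shorter with at least 5 low windows in a row, 119 (53.4%) kept 1 to 4 in a row, and 3 (1.35%), over Foxl2 and Bsx and near Rpap3, kept none. End windows exceeded the limit in 163 of 446 cases (36.5%) and inner windows in 144 of 820 (17.6%). The reverse was counted as well, since a group that chooses windows as low will look lower in them. Of the 108 canyons defined on pooled Tet2-/- libraries, 7 (6.48%) had a window above the limit in Tet2+/+, against 144 of 223 (64.6%) in the other direction. Overlapping canyons made up 45.3% of the Tet2+/+ set and 93.5% of the Tet2-/- set.

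The canyon of Tnrc18 (chr5:142814001-142824000) was 10 kb long and held the most dyads of that length, 532. Its inside level was 1.097% and 1.53% in Tet2+/+ and 2.498%, 5.94% and 4.16% in Tet2-/-, with no overlap of the groups. The outer windows differed by 22.01 points and the core by 0.112 points, and the first window was at 2.53% and 0.889% against 11.96%, 51.3% and 29.3%. The difference of this canyon thus lay at its ends, mainly at 1 of them. Its flank was at 78.8% and 68.5% against 91.8%, 92.4% and 89.3% (edgeR quasi-likelihood test, adjusted p = 0.00329, and 0.00282 to 0.319 without single libraries or with limma).

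In the other canyons of 10 kb the outer windows and the core took different shares of the difference. Over Lbx1, a homeobox gene of muscle precursors and spinal interneurons (chr19:45228001-45238000), the level was 6.86% and 4.24% against 11.7%, 9.66% and 15.04%, with 15.2 points in the outer windows and 6.29 in the core. Over Olig2, a factor of oligodendrocyte precursors (chr16:91219001-91229000), it was 7.07% and 5.27% against 15.8%, 16.6% and 23.6%. The groups did not overlap in either, and at Olig2 the outer windows differed by 12.5 points and the core by 12.8, so that the whole length took part. Over Setd1b, which encodes a histone H3 lysine 4 methyltransferase (chr5:123136001-123146000), levels were 2.43% and 1.11% against 3.83%, 4.49% and 5.34%. As at Tnrc18, the outer windows differed more, by 10.5 points against 1.72 in the core. The canyon with starts of Lamtor4, a subunit of a lysosomal complex, and BC037034 (chr5:138255001-138265000) was at 3.62% and 1.87% against 5.24%, 21.9% and 12.5%. Its difference lay in the core, at 14.1 points, and library 7 stood far above library 5.

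Canyons of 9 kb included those over Hic1 and Bcl6. Over Hic1, a transcriptional repressor (chr11:75165001-75174000), the level was 4.36% and 2.55% against 5.96%, 6.19% and 7.42%, with no overlap. Over Bcl6, a repressor of germinal centre B cells (chr16:23981001-23990000), it was 4.87% and 4.25% against 10.1%, 8.44% and 11.04%, with 20.8 points in the outer windows and 1.48 in the core.

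The largest inside gain was over Foxl2, a forkhead factor of the ovary (chr9:98954001-98959000). Its level was 7.698% and 6.55% in Tet2+/+ and 33.1%, 15.8% and 42.1% in Tet2-/-, a difference of 23.2 points with an SD of 13.4 among the 3 Tet2-/- libraries. The 5 windows differed by 18.7 to 25.1 points each, and the flank was at 23.2% and 25.5% against 25.4%, 18.6% and 29.6%. The difference thus filled the canyon, while the flank means differed by 0.228 points (edgeR adjusted p = 0.982), and library 7 was the lowest of the Tet2-/- libraries.

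Which library was highest changed from canyon to canyon. At the canyon 37825 bp from the start of Rpap3, a chaperone cofactor of RNA polymerase assembly (chr15:97663001-97668000), levels were 10.6% and 4.49% against 17.05%, 43.9% and 23.05%. Over Efna5, an ephrin ligand (chr17:62880001-62885000), they were 6.88% and 4.18% against 27.7%, 17.4% and 28.5%. Library 7 was the highest at the first and the lowest of Tet2-/- at the second. Over Sgms2, a sphingomyelin synthase (chr3:131485001-131492000), levels were 4.76% and 1.98% against 8.95%, 26.5% and 26.4%.

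Cebpe, the C/EBP factor of late granulocyte differentiation (chr14:54710001-54715000), was the myeloid gene with the largest gain. Its canyon was at 5.48% and 3.16% in Tet2+/+ and 10.8%, 24.6% and 29.7% in Tet2-/-. The 2 windows with the lowest coordinates carried this, with 12.1% and 3.67% against 24.6%, 57.2% and 80.4% in the outermost and 8.602% and 4.24% against 16.04%, 36.9% and 60.2% in the next, while in the other 3 the difference was at most 2.81 points. Next to Alas1, the first enzyme of heme synthesis (chr9:106242001-106248000), levels were 6.63% and 2.88% against 10.2%, 26.7% and 23.3%. Over Ptf1a, a factor of pancreas development (chr2:19444001-19449000), they were 10.4% and 8.19% against 23.005%, 20.7% and 28.4%, and over Ckb, the brain creatine kinase (chr12:111668001-111673000), 6.77% and 4.403% against 12.4%, 26.9% and 20.9%. The groups did not overlap at any of these canyons, as the choice of named gains required.

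Losses without overlap of the groups were few. In 6 canyons all Tet2-/- libraries lay below both Tet2+/+ libraries, and the 4 with the largest differences all kept their windows. Over the zinc finger gene Zfp516 (chr18:82909001-82915000) levels were 2.38% and 2.85% against 1.87%, 1.64% and 1.59%, and over Dusp6, a phosphatase of ERK kinases (chr10:99261001-99266000), 1.42% and 2.12% against 0.724%, 1.29% and 1.001%. Over the histone gene Hist1h4h and its neighbours levels were 2.24% and 2.5% against 1.81%, 2.07% and 1.42%. Over Tgif1, a homeodomain repressor, they were 1.45% and 1.34% against 0.8999%, 0.921% and 1.25%. These 4 differences were -0.917 to -0.373 points at levels of 0.724% to 2.85%, beside 0.807% to 0.989% in the mitochondrial genome. Single windows differed more. The first window of Zfp516 was at 12.03% and 13.2% against 9.52%, 6.52% and 6.54%, a difference of -5.06 points. At Dusp6 the last 2 windows differed by -2.88 and -6.60 points, with overlapping groups in both. Counting error was not assessed. The largest negative difference was over Pcdh7, a protocadherin gene chosen after its values were seen (chr5:57714001-57719000), with 5.76% and 12.3% against 8.57%, 0.446% and 6.14%, where the groups overlapped.

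Canyons were then grouped by fixed lists of genes that start in them, which do not hold every gene of a kind. The 19 canyons with a start of a listed developmental transcription factor gene, namely 2 Hox genes, 12 other homeobox genes and 5 other factors, all had a higher mean in Tet2-/-, 18 of them without overlap, beside 122 of all 223 canyons and 41.4% of low runs. Their median gain was 7.69 points, against 1.83 over all canyons. None of these 19 kept 5 low windows in a row, and over all canyons 122 did not. Among canyons at 6% or more in Tet2+/+, 14 of 14 listed developmental canyons and 26 of 29 others did not. At 3% to 6% these were 5 of 5 and 39 of 59, and this contrast was not tested. Developmental factors outside the lists are not counted here, among them Ptf1a, described above, and Sp9, noticed after its values were seen, whose canyon kept all windows at 3.03% and 4.93% against 4.71%, 6.48% and 7.22% with overlapping groups. The 2 Hox canyons had gains of 7.43 and 12.4 points. Over Hoxb8, of the Hoxb cluster, which had the larger, levels were 9.604% and 8.52% against 17.8%, 20.4% and 26.2%. Over Dlx1, a homeobox gene of the forebrain, they were 9.02% and 6.13% against 9.89%, 15.2% and 16.8%, and over Pax2, a kidney and eye factor, 6.51% and 6.05% against 8.16%, 10.6% and 11.6%. The groups were apart at each of these.

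The 15 canyons over stem cell and myeloid transcription factors had a median gain of 0.210 points. Of these, 4 were without overlap, and 11 kept all windows, beside 122 and 79 of all 223. Over Lyl1, a bHLH factor of blood progenitors, levels were 1.11% and 1.73% against 1.55%, 2.604% and 0.9497%, and over Bcl11a, a zinc finger factor of blood cells, 1.89% and 1.64% against 2.66%, 1.598% and 2.73%. Over Irf2bp2, a transcriptional corepressor, they were 1.197% and 1.197% against 1.26%, 1.07% and 1.63%. The groups overlapped at all of these. Cebpe and Mycn were the 2 that kept fewer than 5 low windows in a row, and Mycn, a MYC family gene picked after its values were seen, was at 7.39% and 7.53% against 17.98%, 17.8% and 22.6%. In Tet2+/+ the listed developmental canyons were higher inside than the myeloid ones, with medians of 7.13% and 1.77%, and lower in their flanks, with medians of 23.3% and 57.9%. Among canyons at 6% or more in Tet2+/+ the median gain was 10.3 points in 14 listed developmental canyons and 8.74 points in 29 canyons outside these lists, and at 3% to 6% it was 6.59 points in 5 and 3.22 points in 59. These contrasts were not tested, because inside levels chose the canyons.

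The other gene lists met few canyons. The 4 over growth factor and morphogen ligands, Fgf9, Wnt11, Wnt1 and Gdf6, had gains of 3.98, 6.82, 7.43 and 7.78 points. The 4 over chromatin genes had gains from 0.162 points over Kmt2a, a histone methyltransferase gene rearranged in leukemia, to 4.12 over Pcgf2, a Polycomb gene. Of the lymphoid factors only Bcl6 had its start in a canyon, and none of the 12 marker promoters lay in one. By list, canyons held the starts of 2 of 39 Hox genes, 12 of 112 other homeobox genes, 5 of 94 other developmental factors and 15 of 57 stem cell and myeloid factors.

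To compare the groups without letting Tet2+/+ choose the windows, canyons were called in each library alone after its autosomal calls had been thinned to the total of library 8. Windows with enough dyads and calls to pass then numbered 673901 and 667965 in Tet2+/+ and 667994, 658738 and 661409 in Tet2-/-, so that the coverage of windows was not fully equal. The Tet2+/+ libraries had 218 and 271 canyons and the Tet2-/- libraries 165, 101 and 114. This gave 244.5 ± 37.5 (SD, n = 2) on average in Tet2+/+ and 126.7 ± 33.8 (SD, n = 3) in Tet2-/-, and every Tet2-/- library had fewer canyons than either Tet2+/+ library. The exact permutation test (two-sided) gave p = 0.1, the smallest that 10 groupings of the libraries allow, so that this design cannot reach 0.05. Their summed length was 1226 and 1554 kb against 917, 565 and 634 kb (exact permutation test, p = 0.1). With a limit of 20% there were 341 and 409 against 224, 145 and 160 canyons, and with a limit of 10% there were 116 and 153 against 105, 64 and 74 (exact permutation test, p = 0.1 and p = 0.2). Canyons with a start of a listed developmental transcription factor gene numbered 12 and 24 in Tet2+/+ and 3, 1 and 0 in Tet2-/-, and those with a start of a stem cell or myeloid factor 15 and 19 against 14, 12 and 10. The difference between these lists was not tested.

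**Figure D3:**
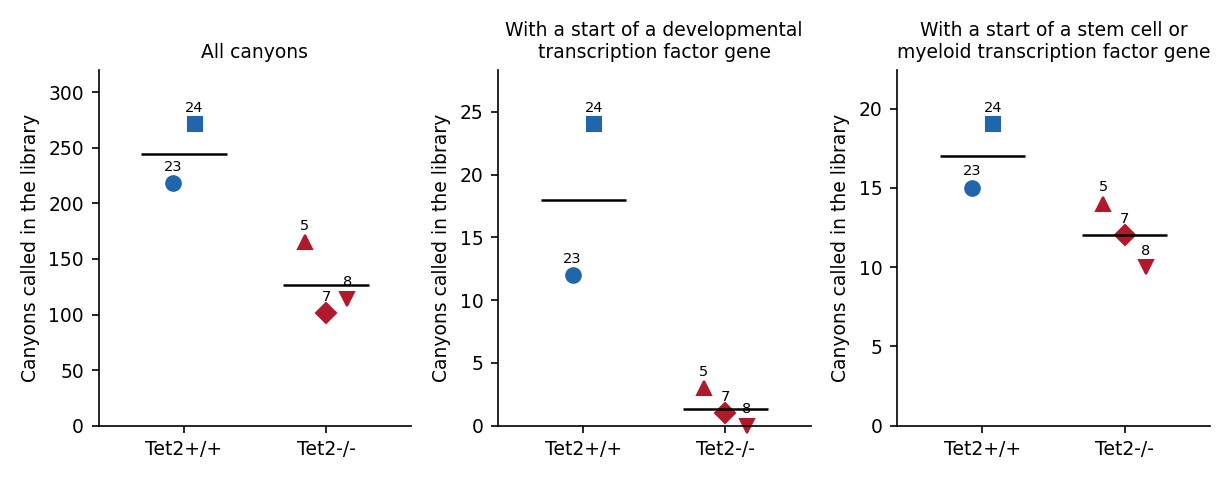
Number of canyons called in each library alone after thinning to an equal total of autosomal calls, with 1 point per library, for all canyons and for those with a start of a listed gene. All canyons number 218 and 271 in Tet2+/+ and 101 to 165 in Tet2-/-, those with a listed developmental transcription factor 12 and 24 against 0 to 3, and those with a stem cell or myeloid factor 15 and 19 against 10 to 14.

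The flanks, 1 to 3 kb outside the ends, were not used by the rule and could be tested. Their level was 52.4% and 49.04% in Tet2+/+ and 57.7%, 62.9% and 59.7% in Tet2-/-, with means of 50.7% ± 2.37 (SD, n = 2) and 60.1% ± 2.63 (SD, n = 3). The difference of 9.38 points exceeded the SD of either group, and no library crossed over (exact permutation test, two-sided, p = 0.1, the smallest possible). In the other windows with at least 10 dyads it was 6.55 points (exact permutation test, p = 0.1). Measured against these windows in the same library, flanks lay 13.2 and 11.8 points lower in Tet2+/+ and 11.8, 9.68 and 7.63 points lower in Tet2-/-. The means of this distance differed by 2.83 points, and libraries 24 and 5 were nearly equal (exact permutation test, p = 0.2), so that a difference particular to canyon flanks was not shown. Against the flanks of runs of 1 to 4 windows, which differed by 7.95 points, it was 1.43 points (exact permutation test, p = 0.2).

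The difference outside canyons was also followed by distance and by canyon length. It was 11.5 points at 0 to 1 kb, 9.998 at 1 to 2 kb, 8.78 at 2 to 3 kb, 9.21 points at 3 to 5 kb, 8.52 at 5 to 10 kb and 7.26 at 10 to 20 kb from the ends. At canyons of 5 kb it was 8.62 points, at those of 6 kb 9.79 points and at those of 7 kb or more 11.9 points, against 9.02 points at runs of 4 windows and 7.99 at single windows. Canyons of 7 kb or more had flanks at 54.6% and 49.2% in Tet2+/+ and 61.8%, 67.6% and 61.8% in Tet2-/-. Neighbouring lengths were not tested against each other, and the SD among Tet2-/- libraries was 2.50 to 3.37 points for the 3 lengths.

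Single flanks were compared by a quasi-likelihood test in edgeR, fitted to both kinds of call, over the flanks of 24600 low runs of any length with at least 20 calls in every library. Of 221 canyons tested, 36 (16.3%) had a more methylated flank in Tet2-/- at an adjusted p under 0.05 and 0 a less methylated one. Over all low runs 14.3% were higher and 0.0325% lower, so that the share at canyons was near the background. At an unadjusted p under 0.05, 76 of the 221 passed in either direction, beside 8228 of the 24600 low runs. All Tet2-/- libraries lay above both Tet2+/+ libraries at 129 of the tested flanks (58.4%), beside 53.7% of low runs, and below both at 1, over Mllt3, beside 0.85%. The number of calls changed with the Tet2+/+ libraries in the fit. Without library 24, 1 canyon flank (0.448%) was called, beside 0.557% of low runs, and without library 23 there were 19 (8.60%), beside 6.86%. In both fits Tet2+/+ was a lone library, assumed to vary like the Tet2-/- libraries, and with 2 Tet2+/+ libraries it cannot be said which of them is typical. Without 1 Tet2-/- library 32 to 37 (14.5% to 16.7%) were called, beside 12.5% to 14.5% of low runs. With limma 18 (8.14%) were called, beside 6.52% of low runs. When the median of its library was first taken off each value, limma called 0, beside 0.240% of low runs. An unadjusted p under 0.05 was then reached at 31 of 221 canyon flanks, beside 3804 of 24600 low runs. The number of calls thus moved at low runs of any length as it did at canyons.

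**Figure D4:**
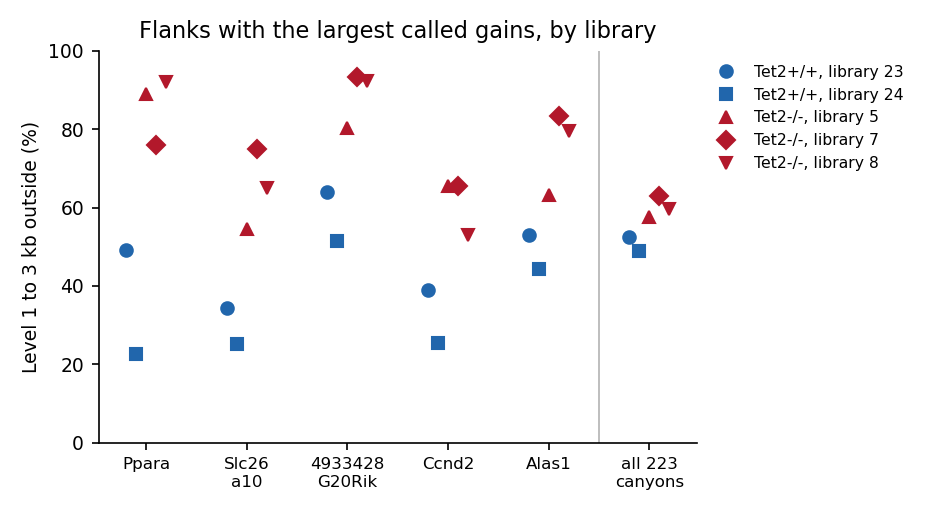
Level (%) 1 to 3 kb outside the canyons with the largest called flank differences and outside all 223 canyons, with 1 point per library by group. The Tet2-/- points lie above the Tet2+/+ points in each column, by 26.8 to 49.7 points at the single canyons and 9.38 points over all. The single canyons were named only if their groups did not overlap.

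The largest called difference was in the flank of a canyon 60983 bp from the start of Ppara, the nuclear receptor of fatty acid oxidation (chr15:85669001-85674000). The flank was at 49.2% and 22.6% in Tet2+/+ and 88.99%, 75.97% and 92.1% in Tet2-/-, a difference of 49.7 points (edgeR quasi-likelihood test, adjusted p = 1.15e-06). The Tet2+/+ libraries were far apart, with an SD of 18.8, and both lay below every Tet2-/- library, as the choice of named flanks required. This flank alone was still called without library 24, and its adjusted p ranged from 5.92e-09 to 0.0518 without single libraries or with limma. The difference reached into the canyon, at 54.3 points in the outer windows and 2.51 in the core, while the middle window was at 2.47% and 0.683% against 0.898%, 0.812% and 1.38%.

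Other called flanks lay at canyons that differed in their inside. At Slc26a10, a gene of the SLC26 anion transporter family (chr10:127176001-127181000), the flank was at 34.5% and 25.2% against 54.4%, 75.1% and 65.02% (edgeR adjusted p = 0.000635), and the inside differed by 13.3 points. At a canyon 30661 bp from 4933428G20Rik (chr11:97531001-97537000) it was at 63.8% and 51.5% against 80.2%, 93.3% and 92.2% (edgeR adjusted p = 0.000222). At Ccnd2, a D-type cyclin (chr6:127149001-127156000), it was at 38.97% and 25.3% against 65.6%, 65.5% and 53.04% (edgeR adjusted p = 0.0045). The Ccnd2 canyon itself stayed at 0.947% and 1.54% against 0.996%, 0.705% and 1.03% and kept all windows. Next to Alas1 the flank was at 53.05% and 44.3% against 63.2%, 83.5% and 79.6% (edgeR adjusted p = 0.00496). The groups were apart at all 4 because only such flanks were named. With limma after median subtraction their adjusted p was between 0.0726 and 0.247. Inside and flank differences had a Pearson r of 0.188 across the 223 canyons, and the median inside difference of the 36 was 2.78 points. Canyons with listed genes among them were those of Hoxb8, Nr2f1, Bcl11a, Wnt1 and Pcgf2. These were 5 of 43 tested canyons with a listed gene (11.6%), beside 16.3% of all canyons tested and 14.3% of low runs.

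Few blood genes chosen by name had canyons. For each gene only the upstream end of its annotated span was counted as a start, and other promoters were not looked at. Runx1, a factor of blood stem cell formation, had 1 over a start (chr16:92822001-92827000), with 2.696% and 5.14% inside in Tet2+/+ and 5.13%, 2.78% and 5.34% in Tet2-/-, and all its windows stayed low. Its flank was at 72.7% and 63.2% against 74.6%, 78.9% and 80% (edgeR adjusted p = 0.21). Another canyon, 127149 bp from that start and noticed after its values were seen (chr16:92694001-92699000), had a flank at 25.3% and 31.4% against 26.2%, 71.4% and 64.1% (edgeR adjusted p = 0.0309), with overlapping groups. Cebpa and Gfi1 lay in low runs of 4 windows, which for Cebpa was at 0.829% and 0.983% against 0.865%, 0.6299% and 0.8197%. Gata2, a stem cell factor, and Meis1 lay in runs of 2. The run over the upstream Gata2 start (chr6:88193891) was at 6.22% and 4.37% against 4.79%, 10.5% and 7.41% with overlapping groups. The paper reports a gain of methylation at the promoter of the blood-specific transcript of this gene. Whether the run holds that promoter was not determined, so its levels do not test that gain. Spi1 had 1 low window, and the starts of Hoxa9 and Lmo2 lay in none.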

How the data were processed

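The deposited files hold, per CpG, counts of methylated and unmethylated reads for each of 5 libraries, 2 Tet2+/+ and 3 Tet2-/-. Per the submitters' processing notes the authors checked reads with FastQC 0.11.7, trimmed them with Trim Galore 0.4.3 and aligned them to GRCm38 (mm10) with Bismark 0.19.1 and Bowtie 2. Both strands of a CpG were summed to a dyad, and all 20383623 autosomal dyads lay at CG in GRCm38. Levels are methylated calls over all calls of a region. Genes and exons came from the GENCODE vM21 annotation of GRCm38. Each gene had 1 start, the upstream end of its span, so that alternative promoters did not count. Groups were compared by the two-sided exact permutation test over 10 groupings, and flanks (at least 20 calls per library) by edgeR 4.0.16 on both counts with Benjamini-Hochberg adjustment, in R 4.3.3, with limma 3.58.1 as an alternative. On simulated data of 24600 flanks with 200 changed, the edgeR step recovered 157 at 25 points (8 false calls) and 200 at 45 points (11 false). The simulated spread between libraries was set by hand, and no library was shifted as a whole. In the real data the median difference over all tested flanks was 7.31 points, so that the simulation gives no rate of false calls for them. Tables were made with Python 3.11.15, numpy 2.4.6 and pandas 2.3.3. Alternatives changed the level limit, run length, call minimum, depth, defining group, test and libraries. Canyons named were the 8 longest, and the 8 largest gains and 4 largest losses inside without overlap. The 5 largest called flank differences without overlap and fixed blood genes were also named, with the first by length per gene list. Some genes that this rule or the marker list names are not reported here. The members and lists were chosen with earlier results of these data known. Each library is 1 mouse, and the exact tests regroup whole mice. The edgeR p-values use a spread between mice that was partly shared over flanks. They hold no term for a shift in methylation of a whole library. The labels do not say whether the recipients of a group shared a marrow donor, so that their independence is not known.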

Additional observations from a re-analysis of the deposited data

How the results depend on the processing

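The inside difference of 3.46 points was 1.06 points in canyons defined on both groups, 0.388 in those defined on Tet2-/- and 1.81 with a limit of 10%. The outer 1 kb difference of 5.27 points was 1.39, 0.552 and 3.04 points under the same settings, in which the defining libraries or the limit set how low a canyon is in each group. The flank difference was 9.51, 9.23 and 8.74 points there. Without single libraries the inside difference was 2.89 to 4.02 points, the outer one 4.797 to 5.89, the flank difference 7.70 to 11.1, its excess over other windows 1.80 to 3.86 and over flanks of shorter runs 0.808 to 1.99, and the difference in canyons per library -144 to -91.3. Called flanks, 36 with edgeR, numbered 1 to 37 without single libraries, 42 with edgeR's likelihood ratio test, 18 with limma and 0 with limma after median subtraction (31 at an unadjusted p under 0.05). By the likelihood ratio test 19.005% of canyon flanks were called, beside 17.01% of all low runs, so that these 42 were near the background. For the other fits the shares of low runs are given above with the flank tests. Fits without library 23 or 24 hold 1 Tet2+/+ library, which is assumed to vary like the others, and which of these 2 is typical cannot be said. No result changed its direction under the alternatives run. Alternatives chosen after seeing the data restricted flanks to windows of at least 10 dyads (9.42 points, and 2.87 in excess of other windows, exact permutation p = 0.2) and both to windows over 15% (2.70 points in excess, exact permutation p = 0.3). No paired analysis was possible because the library numbers of the groups are not shared. With 2 and 3 mice no exact test can pass 0.05, and at 2.999 to 5.27 calls per dyad single dyads are not resolved.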

Other observations

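7 canyons were found when the pooled Tet2-/- libraries defined them and not when Tet2+/+ did, over Asic4, Elk4, Hlx, Ssbp3, Prkd2 and Ap3m2 and near Kdm6b. Each missed the Tet2+/+ rule by 1 window, at 16.6% to 30.5%. Over Hlx, a homeobox gene (chr1:184731001-184736000), the level was 4.86% and 5% in Tet2+/+ and 1.12%, 2.99% and 2.15% in Tet2-/-. At Asic4, an ion channel gene, it was 7.02% and 5.69% against 8.19%, 5.60% and 9.78%, with overlapping groups. These canyons were chosen on Tet2-/- levels, and no test was made.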
